A study of Mus musculus with 3 samples.

Results

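The interferon response genes described here are 48 genes chosen by name: genes that interferons induce, together with the STAT and IRF factors that control them. Of these, 44 had a probe set naming that gene alone, out of 19938 genes measured this way. Isg15, Gbp2, Igtp and Ifi44 had no such probe set and are not analysed here. The series holds 3 single-colour microarrays of haematopoietic stem cells from bone marrow of wild-type C57Bl/6 mice aged 6 to 10 weeks, with no treatment given in the labels. The cells, called KLS SLAM, carried CD150, Sca-1 and c-Kit at their surface and lacked lineage markers, CD41 and CD48. All 3 arrays belong to 1 group, so the only comparison is between arrays 1, 2 and 3, named after their replicate numbers. Nothing in the labels ties the arrays to separate mice or sorts, and p-values of their spread may thus measure technical variation only.

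Values are log2 of the deposited intensities, and the 3 values given for a gene are those of arrays 1, 2 and 3 in that order. Median intensities over all probe sets were 60.4, 58.0 and 56.7. Because the files hold no detection calls, a background range was taken from 1229 olfactory, vomeronasal and taste receptor genes, which marrow cells are not known to use. The 95th percentile of those genes, 6.30, 5.98 and 5.77 log2, was the upper limit of the range. A value below it does not show that a gene was silent, and a value above it does not show that it was transcribed, since each probe set has its own affinity. Levels of different genes are therefore not ranked. All 8 measured genes of the sort gate and stem cell list were above the range on every array, against 36.8% of all genes. Kit was at 10.28, 9.92 and 9.85. Slamf1, which encodes CD150, was at 6.41, 6.48 and 6.65 and lay 0.11 log2 above the limit on array 1.

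Interferons are secreted proteins made in response to infection. Type I interferons bind the receptor of Ifnar1 and Ifnar2, whose kinases activate STAT factors, STAT2 among them; with IRF9 these bind the interferon-stimulated response element (ISRE) in the promoters of target genes. Interferon gamma signals reach another element, the gamma-activated site (GAS). In haematopoietic stem cells interferon is known to drive quiescent cells into cycle, and factors that hold the response down, such as IRF2, ADAR and IRGM1, are known to preserve stem cell function.

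Promoter sequences were at hand for 37 of the 48 genes, from 250 bases before to 50 bases after the annotated start (RefSeq, GRCm38.p6). The core letters of the ISRE, GAAA and GAAA with any 2 bases between them on either strand, stood in the promoters of 19 of these 37 genes, or 51.4%, against 3.99% of the 27025 genes in the table. Counted by promoter, the letters stood in 20 of 46, against 3.44% of all 32851 promoters. The letters of the GAS, TTCNNNGAA, stood in 12 of the 37 genes, or 32.4%, against 9.55% of all genes, and 2 of their matches overlapped a match of the ISRE core. A match is a run of letters and not a binding site. The stretches shown here hold the matches of 9 genes whose values follow, because they show how the same core recurs on either strand and in pairs. Each is written 5′ to 3′ on the strand of its gene, from bases before the start only, with matched letters in capitals (ISRE core for the first 8, GAS for Irf1).
Rsad2 (chr12:26456548-26456587, minus strand): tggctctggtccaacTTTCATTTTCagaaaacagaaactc
Ifit1 (chr19:34640770-34640828, plus strand): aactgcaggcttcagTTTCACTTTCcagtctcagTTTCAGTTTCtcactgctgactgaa
Ifit3 (chr19:34583358-34583431, plus strand): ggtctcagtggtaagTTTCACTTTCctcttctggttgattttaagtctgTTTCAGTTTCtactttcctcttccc
Oas1a (chr5:120907526-120907560, minus strand): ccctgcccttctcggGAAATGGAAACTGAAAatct
Oas3 (chr5:120777710-120777749, minus strand): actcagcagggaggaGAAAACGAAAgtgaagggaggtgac
Bst2 (chr8:71537572-71537617, minus strand): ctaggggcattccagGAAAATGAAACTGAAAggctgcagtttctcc
Gbp3 (chr3:142559984-142560029, plus strand): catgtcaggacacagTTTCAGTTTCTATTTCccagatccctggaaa
Irgm1 (chr11:48871421-48871465, minus strand): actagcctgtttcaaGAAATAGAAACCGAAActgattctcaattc
Irf1 (chr11:53769909-53769947, plus strand): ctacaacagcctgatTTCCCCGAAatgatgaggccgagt

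Ifit1 and Ifit3 each hold 2 separate cores, whereas in Oas1a, Bst2, Gbp3 and Irgm1 the 2 matches share letters and run on from each other. In Oas1a and Irgm1 they end within 15 bases of the annotated start. The ISRE letters of Eif2ak2, Ifih1, Ddx58 and Ifitm3 lie after the start and are not shown. Neither promoter of Ifit2 held them.

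Most of the interferon response genes gave signal above the background range in these sorted samples. Markers of other cell types, granulocytes among them, also gave signal, as described below. On all 3 arrays 32 of the 44 were above it, or 72.7%, against 36.8% of all genes measured. The same 36.8% stands beside the counts by role given below. The 12 that were not divide into 3 kinds. Irf7, Dhx58, Cmpk2 and Mx1 were below the limit on every array. Zbp1, Ifit1, Ifit3, Oas3, Usp18 and Ifi27l2a missed it on array 1 alone, the array with the highest limit. Ifit2 and Mx2 passed it on array 3 alone. With the 99th percentile of receptor genes as the limit, 14 of the 44 were above it on every array, against 17.4% of all genes.

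**Figure D1:**
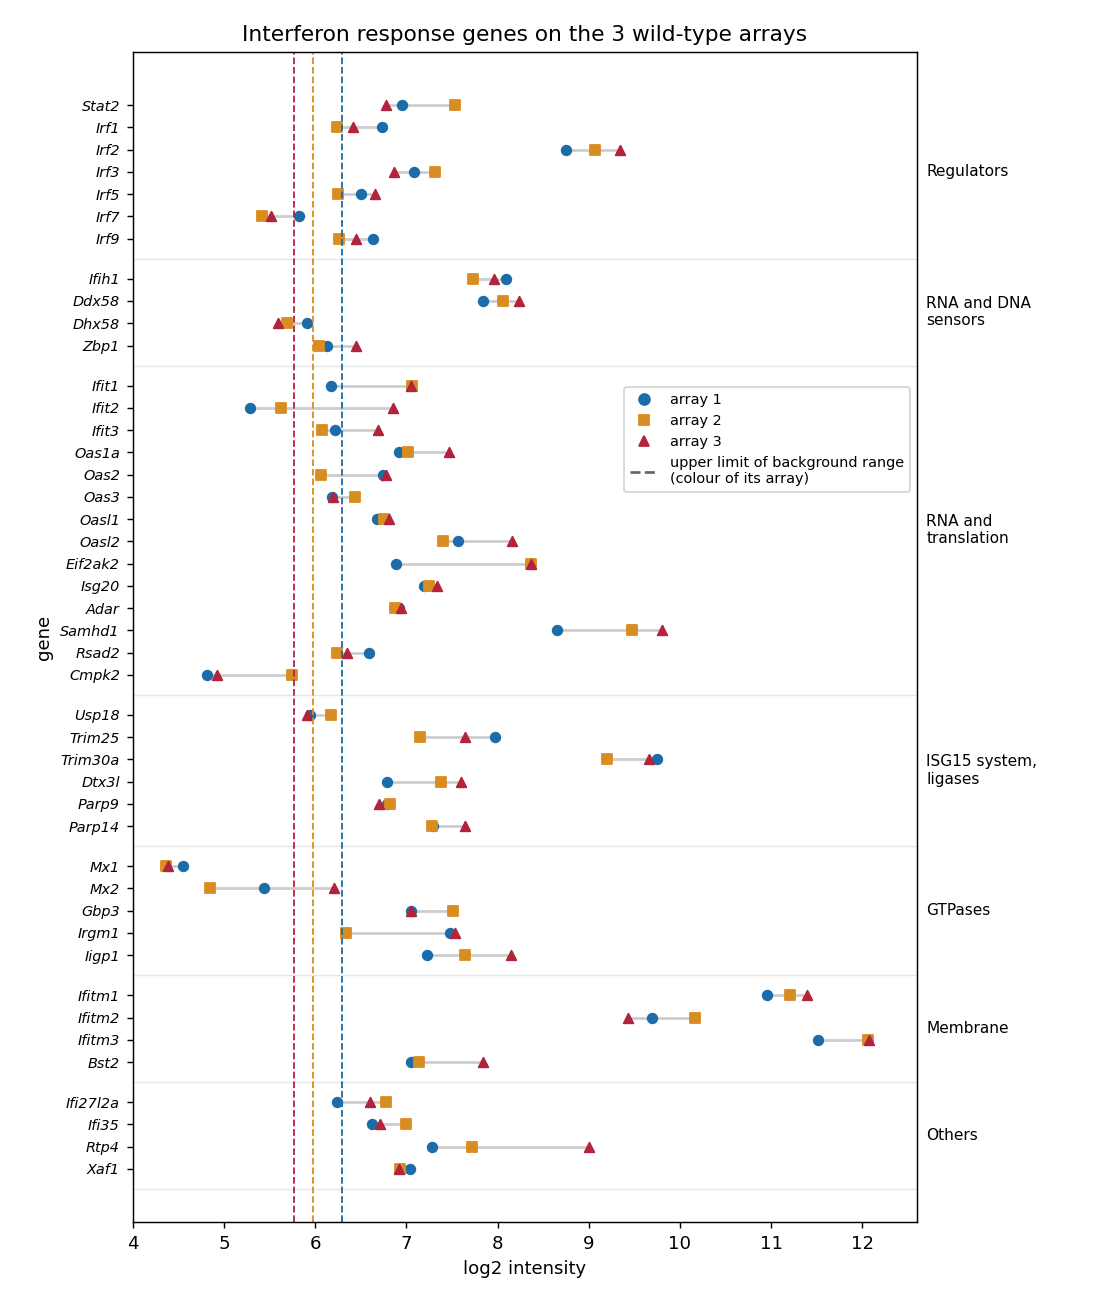
Log2 intensity (horizontal axis) of each of the 44 measured interferon response genes on array 1 (circles), array 2 (squares) and array 3 (triangles), grouped by role, with a grey line joining the lowest and highest value. Dashed lines mark the upper limit of the background range of each array, at 6.30, 5.98 and 5.77; Irf7, Dhx58, Cmpk2 and Mx1 lie left of it on all 3 arrays, and Rtp4, Ifit2 and Eif2ak2 have the widest spread.

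Among the regulators 6 of 7 were above the range. Stat2, the STAT that is dedicated to type I and type III interferon signals, was at 6.95, 7.54 and 6.77, so array 2 was high and arrays 1 and 3 were close. Irf9, which gives the STAT complex its DNA contact, was at 6.64, 6.26 and 6.45. Irf2, the factor that competes with activating IRFs at their sites, was at 8.75, 9.07 and 9.34 and thus far above the limit throughout. Irf1, the activator whose GAS is printed above, averaged 6.74, 6.24 and 6.42 over 2 probe sets. These probe sets shared the order of the arrays: the first was at 6.78, 6.22 and 6.51 and the second at 6.69, 6.26 and 6.32. Irf3, which is activated by phosphorylation and present before any stimulus, was at 7.09, 7.32 and 6.87. Irf5 was at 6.51, 6.25 and 6.65. Irf7, the factor that interferon itself induces to amplify the response, was at 5.82, 5.42 and 5.52. It was the regulator below the limit on every array, by 0.47, 0.56 and 0.25 log2.

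The sensors of viral nucleic acid divided by gene. Ifih1, which encodes the long double-stranded RNA sensor MDA5, was at 8.09, 7.73 and 7.96. Ddx58, which encodes RIG-I, the sensor of RNA ends, was at 7.84, 8.06 and 8.23. Both lay over 1 log2 above the limit on each array and differed little between arrays, with SDs of 0.18 and 0.20 (n = 3). Dhx58, the related helicase LGP2 that lacks signalling domains, was at 5.91, 5.70 and 5.60, below the limit throughout. Zbp1, a sensor of left-handed nucleic acid that can start cell death, was at 6.13, 6.04 and 6.45, close to the limit on arrays 1 and 2.

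The IFIT proteins, which hold back translation of foreign RNA, are encoded in a cluster on chromosome 19, with Ifit2 next to Ifit3. Ifit1 was at 6.18, 7.07 and 7.05, so array 1 was low and the others alike. Ifit2 was at 5.28, 5.63 and 6.86, so array 3 was high, 1.09 log2 above its limit, while arrays 1 and 2 lay within the background range and give no measured fold. Ifit3 was at 6.22, 6.08 and 6.69, also with its high value on array 3 but by less. The highest value of Ifit1 was on array 2 by a small margin.

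The oligoadenylate synthetases make the messenger that switches on RNase L, and their genes lie in clusters on chromosome 5. Oas1a was at 6.93, 7.02 and 7.46, Oas2 at 6.74, 6.06 and 6.78, and Oas3 at 6.19, 6.43 and 6.20. Array 3 was high for Oas1a, array 2 was low for Oas2, and Oas3 stayed near the limit. A probe set that names both Oas1a and Oas1g, and was not used, differed in order. It was at 6.61, 7.34 and 7.08, with array 2 highest. Of the OAS-like genes, which are neighbours too, Oasl1 was at 6.68, 6.76 and 6.81 and Oasl2 at 7.56, 7.41 and 8.16. The spread of Oasl2, an SD of 0.40, was the larger of the pair, with array 3 high, while that of Oasl1 was 0.07.

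Other genes that act on RNA and nucleotides held both the steadiest and some of the most variable values. Adar, the adenosine deaminase that edits double-stranded RNA and so keeps it from being sensed as foreign, was at 6.92, 6.88 and 6.94, an SD of 0.03 (n = 3). Isg20, an exonuclease, was at 7.20, 7.25 and 7.34 and was nearly as steady. By contrast, Eif2ak2, which encodes the kinase PKR that stops translation on sensing double-stranded RNA, was at 6.89, 8.37 and 8.37. Arrays 2 and 3 agreed to the second decimal, and array 1 was 2.78-fold lower than their geometric mean. Samhd1, the enzyme that lowers nucleotide pools, was at 8.66, 9.48 and 9.80, with array 1 low by 1.97-fold. Rsad2 and Cmpk2 are adjacent on chromosome 12, and their products make an antiviral nucleotide in consecutive steps. Rsad2 was at 6.59, 6.24 and 6.36, above the limit, while Cmpk2 was at 4.82, 5.74 and 4.93, below it on every array. In all, 9 of the 14 genes of RNA and translation were above the range, against 36.8% of all genes. Array 3 gave the highest value for 10 of the 14, against 29.8% of all genes and 40.5% of all genes above the range. This count was not repeated with the arrays scaled in other ways.

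Of the ISG15 system and ubiquitin ligases 5 of 6 measured genes were above the range. Usp18, which removes ISG15 and damps receptor signalling, was at 5.94, 6.17 and 5.91, the member of this group not above it. Trim25, the ligase that acts on RIG-I, was at 7.98, 7.15 and 7.65, and Trim30a at 9.75, 9.21 and 9.67. Both had their lowest value on array 2. Dtx3l, Parp9 and Parp14 are neighbours on chromosome 16, and DTX3L and PARP9 form a complex that modifies ubiquitin. Their values did not share an order: Dtx3l was at 6.79, 7.38 and 7.60, Parp9 at 6.79, 6.82 and 6.70, and Parp14 at 7.29, 7.28 and 7.65. Dtx3l was low on array 1, whereas its partner Parp9 differed by an SD of 0.07 only.

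The interferon-induced GTPases differed by family. The MX proteins block viral nucleocapsids, and in C57BL/6 mice both genes carry inactivating changes; the RefSeq table lists each as a transcribed pseudogene. Mx1 was at 4.55, 4.37 and 4.38, far below the limit on every array, and Mx2 was at 5.44, 4.84 and 6.21. Mx2 on array 3 lay 0.44 log2 above the limit and within the background range on the other arrays, so no fold is given. The guanylate binding protein and immunity-related GTPase families act on vacuoles that hold pathogens, and all 3 of their measured genes were above the range. Gbp3 was at 7.05, 7.51 and 7.05, with array 2 high. Irgm1, which restrains the effector GTPases of its family, was at 7.48, 6.34 and 7.54, so array 2 was 2.25-fold lower than the geometric mean of arrays 1 and 3. Iigp1, an effector of the same family, was at 7.22, 7.64 and 8.15 and did not share that low value.

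All 4 membrane proteins were above the range, and 3 of them are the IFITM proteins, which block fusion of enveloped viruses and whose genes are adjacent on chromosome 7. Ifitm3 was at 11.52, 12.06 and 12.07. Ifitm1 averaged 10.96, 11.20 and 11.39 over 2 probe sets, at 11.30, 11.32 and 11.45 for the first and at 10.62, 11.08 and 11.33 for the second. Ifitm2 averaged 9.69, 10.16 and 9.43 over 3 probe sets, and each of these had its highest value on array 2 and its lowest on array 3. All 3 IFITM genes lay over 3 log2 above the limit on each array. IFITM genes resemble each other in sequence, so their probe sets may share signal. Bst2, which encodes tetherin, the protein that holds budding virus at the cell surface, was at 7.05, 7.14 and 7.84. Arrays 1 and 2 were close for Bst2, and array 3 was 1.67-fold above their geometric mean.

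Of the other 4 measured genes 3 were above the range. Rtp4, a chaperone of membrane receptors, was at 7.28, 7.72 and 9.001, with an SD of 0.89. Array 3 was 2.83-fold above the geometric mean of the others, which was the largest array difference among the 44 genes in that direction. Ifi35 was at 6.62, 6.99 and 6.71 and Xaf1, a partner of the apoptosis inhibitor XIAP, at 7.04, 6.93 and 6.92. Ifi27l2a, a mitochondrial protein gene, was at 6.24, 6.77 and 6.60 and missed the limit on array 1.

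No gene passed the test for variation between the 3 arrays. By limma's variance test (a one-sided F test against the variance trend, Benjamini-Hochberg over 19938 genes, threshold 0.05), 0 of the 44 genes passed, and so did 0 of all genes, or 0.0%. At an unadjusted p under 0.05 there were 2 of the 44, Ifit2 and Mx2, and 1017 of all genes, or 5.10%. The smallest adjusted p among the 44 was 0.894, for Ifit2, and without robust estimation of the trend the count stayed at 0. The median SD of the 44 genes was 0.27 log2, against 0.22 for all genes and 0.26 for all genes above the range. A range over the arrays above 1 log2 was found for 6 of the 44, namely Rtp4, Ifit2, Eif2ak2, Mx2, Irgm1 and Samhd1, against 10.5% of all genes. Of the 32 above the background range on every array 4 had such a range, against 13.4% of all genes above it. The differences between arrays given for single genes are therefore descriptions of these 3 samples.

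Array 3 gave the highest value for 23 of the 44 genes, or 52.3%, against 29.8% of all genes. Array 1 did so for 10, against 31.6%, and array 2 for 11, against 38.6%. The genes above the background range are the closer comparison, because bright genes as a whole were higher on array 3: 19 of the 32 members above the range were highest there, against 40.5% of all 7345 genes above it. Of the same 32, 7 were highest on array 1, against 30.2%, and 6 on array 2, against 29.3%. The median over the 44 genes of array 3 minus the mean of the others was 0.15 log2, against -0.04 for all genes. For the 32 above the range it was 0.23, against 0.07 for all genes above it. The mean over the 44 genes was 7.09, 7.18 and 7.37. This tilt depended on the scaling of the arrays. After removal of the deviation shared by genes of like level, 17 of the 44 were highest on array 3, against 32.5% of all genes, and after quantile normalization of the gene values 15 were, against 29.4%.

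**Figure D2:**
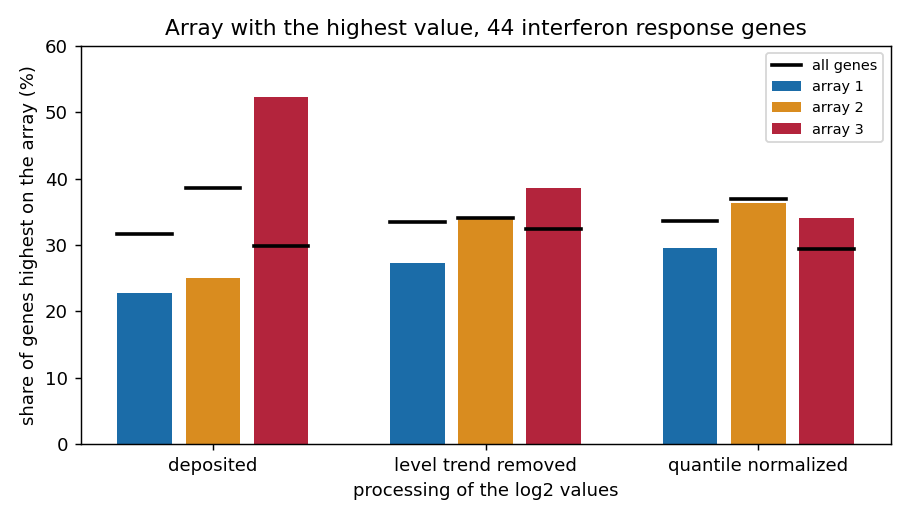
Share of the 44 interferon response genes (bars, percent) whose highest value lay on each array, with the share of all 19938 genes as black lines, for the deposited values, after removal of the level trend and after quantile normalization. The bar of array 3 stands at 52.3% against 29.8% of all genes in the deposited values and lies near the black line in the other settings, where 17 and 15 of the 44 genes were highest on array 3.

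The tilt was uneven between genes. On array 3, 6 genes lay over 0.5 log2 above both other arrays, namely Rtp4, Ifit2, Mx2, Iigp1, Bst2 and Oasl2, against 6.25% of all genes. Rtp4, Ifit2, Mx2 and Bst2 were also among them after quantile normalization and after removal of the level trend, whereas Iigp1 and Oasl2 were not in either; Ifit3 joined them after removal of the level trend. On array 1, 5 genes lay over 0.5 log2 below both other arrays, namely Eif2ak2, Samhd1, Ifit1, Dtx3l and Ifitm3, against 4.76% of all genes. All but Ifitm3 were also among them under both other scalings. On array 2, Stat2 and Cmpk2 lay that far above both others, 2 genes against 4.65% of all genes, and Irgm1, Mx2 and Oas2 that far below, 3 genes against 4.86%. The values of Cmpk2, those of Mx2 and Ifit2 on arrays 1 and 2, and those of Ifit1 and Ifit3 on array 1 lay within the background range. None of the 44 lay that far above both others on array 1 or below both on array 3, against 4.11% and 2.72% of all genes. Of the IRF and STAT regulators 3 of 7 were highest on array 1, 2 on array 2 and 2 on array 3. Of 16 measured genes that held the ISRE letters 8 were highest on array 3, and of 17 whose promoters did not hold them 9 were. Over all genes, 31.6%, 38.6% and 29.8% were highest on arrays 1, 2 and 3.

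**Figure D3:**
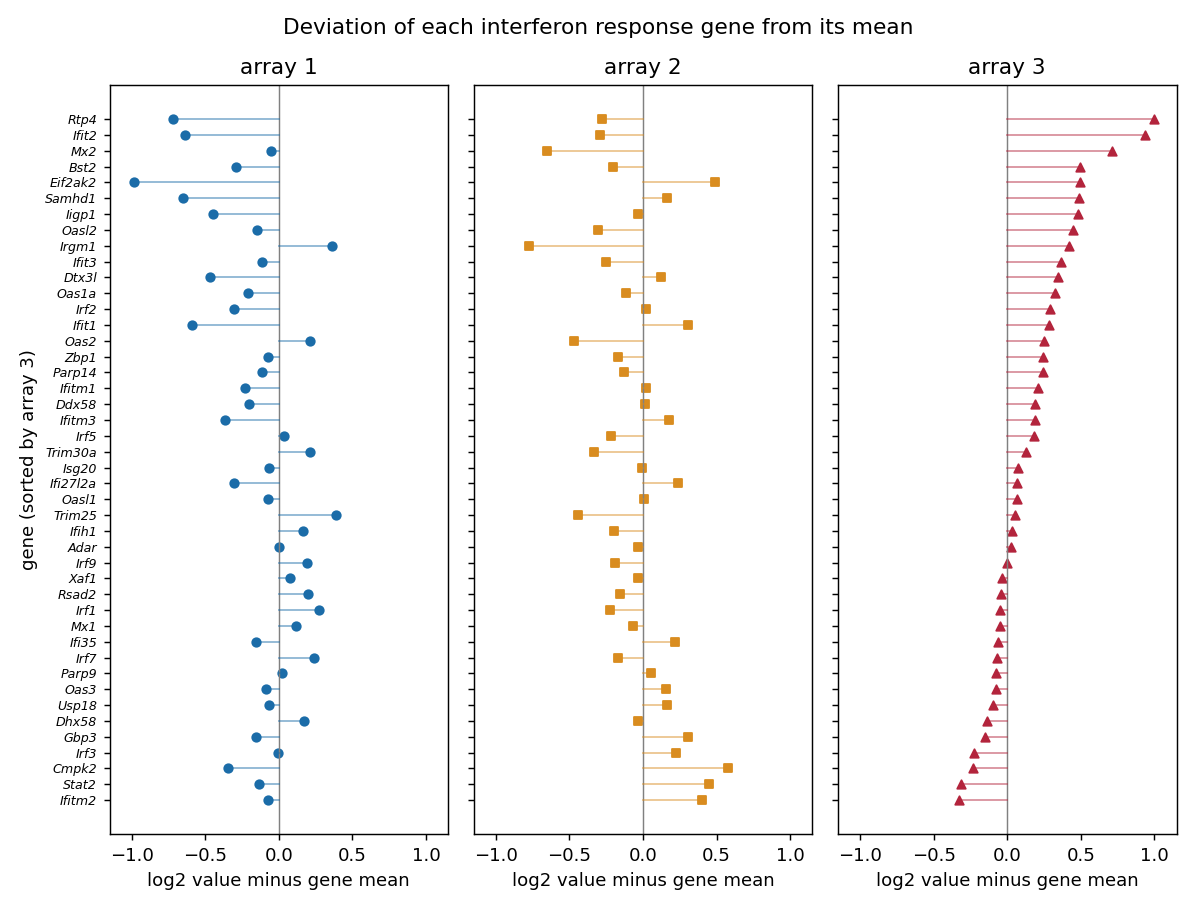
Log2 value minus the mean of the gene over the 3 arrays (horizontal axis) for each of the 44 interferon response genes, with a panel for each array and genes sorted by their difference on array 3. Rtp4, Ifit2 and Mx2 head the order on array 3; Eif2ak2 is the gene farthest below its mean on array 1 and Irgm1 on array 2.

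The wider pathway was read from 78 further genes, of which 70 were measured, 41 were above the range and 0 passed the variance test. For this and the pathway counts that follow, the share of all genes above the range was 36.8%. Most interferon genes lay below the limit: 1 of 7 was above the range, with Ifnb1 at 4.13, 3.79 and 4.46, Ifng at 5.56, 5.50 and 5.37 and Ifne at 4.86, 5.05 and 4.80. The exception was Ifnl2, a type III interferon gene at 7.58, 7.94 and 7.71, named after its value was seen. Of the receptors and kinases 6 of 9 were above the range. The others were Tyk2, a kinase of the type I receptor, below the limit on every array at 6.14, 5.95 and 5.56, and the receptor genes Ifnlr1 and Il10rb, each above it on array 3 alone. The type I receptor genes Ifnar1 and Ifnar2 were at 6.94, 6.77 and 6.60 and at 9.04, 9.01 and 9.13, and Ifngr1, of the interferon gamma receptor, was at 7.96, 8.33 and 8.998.

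Of the sensors and adaptors upstream of interferon 3 of 13 were above the range. These were Tbk1, the kinase that activates IRF3, at 7.66, 7.62 and 8.19, its relative Ikbke at 6.57, 6.20 and 6.73, and the DNA sensor gene Aim2 at 8.46, 8.25 and 9.31, all named after their values were seen. The endosomal receptor genes Tlr3, Tlr7 and Tlr9 were at 5.30, 6.17 and 5.85, at 3.97, 4.43 and 4.32 and at 5.35, 5.04 and 5.43. Negative regulators had 7 of 9 above it, among them Socs1, which blocks the receptor kinases, at 6.90, 7.05 and 6.95 and the phosphatase gene Ptpn6 at 8.95, 8.54 and 8.32; Socs3 was at 6.01, 6.19 and 6.22 and missed it on array 1. Of 32 other interferon-induced genes 24 were above it, including Ly6e at 9.80, 9.93 and 9.76, Lgals3bp at 7.05, 7.22 and 6.85 and Sp100 at 8.09, 8.42 and 8.78. Array 3 gave the highest value for 36 of the 70 genes, against 29.8% of all genes and 40.5% of all genes above the range. The count was 32 after quantile normalization, against 29.4%, and 34 after removal of the level trend, against 32.5%, so it moved less than that of the 44 genes. These genes were listed with earlier results of the same data known, so their count is no independent support for the tilt.

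Markers of other cell types differed by list in how many were above the range, which 36.8% of all genes were. In a sorted bulk sample, fewer cells of a type and less RNA per cell cannot be told apart. Plasmacytoid dendritic cells are strong producers of type I interferon and carry Bst2; 3 of 8 measured markers were above the range, and the list mean was 6.14, 6.09 and 6.08. Those 3 were Tcf4 at 8.26, 7.71 and 8.20, Cox6a2 at 6.94, 6.63 and 6.58 and Ly6d at 6.36, 6.24 and 6.15. Their defining marker Siglech was at 5.95, 6.00 and 5.85, below the limit on array 1 and just above it on arrays 2 and 3, and Ccr9 was below the limit on every array. The monocyte and macrophage list had 2 of 11 above it, Lyz2 and Cd68, and means of 6.01, 6.23 and 6.17. The T and NK cell list had 1 of 11, Nkg7 at 6.44, 5.99 and 7.40, and means of 5.20, 5.28 and 5.34. Of its 11 genes 3 were highest on array 3, against 29.8% of all genes, and 7 on array 2, against 38.6%. The B cell list had 1 of 7 above the range, Cd79b, and means of 5.19, 5.12 and 5.26. The markers above the range in these 4 lists were named after their values were seen. The granulocyte list had 9 of 13 above it and means of 7.82, 8.46 and 8.45. Its mean was thus low on array 1, like Eif2ak2, Samhd1, Ifit1 and Dtx3l. S100a8 was at 11.73, 12.31 and 12.20, S100a9 at 11.94, 12.57 and 12.61 and Ngp at 9.25, 11.14 and 10.40. Mpo was instead highest on array 1, at 8.29, 7.53 and 7.88. Prtn3, at 7.10, 6.60 and 7.32, was lowest on array 2, and Ly6g, at 6.89, 7.59 and 6.27, on array 3. These granulocyte genes were also named after their values were seen. The part of granulocyte RNA in the values of the interferon response genes was not tested. Of the markers the sort excluded, Itga2b, which encodes CD41, was at 6.51, 6.36 and 6.24 and thus above the limit on every array. Cd48 was at 4.61, 5.62 and 6.14 and passed the limit on array 3 alone.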

How the data were processed

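Per the labels' protocols, RNA was purified on columns from the sorted cells and amplified before labelling with biotin. Per the submitters' processing notes, the authors made the deposited intensities by RMA with Affymetrix Expression Console; the sources used here do not give versions, a genome build or which arrays were normalized together. The deposited intensities ran from 2.82 to 18384, so they were read as linear and put on the log2 scale with no pseudocount. Of 35554 probe sets, 21789 named 1 gene in the platform annotation, 1621 named several and 12144 were not listed; only the first kind was used, and probe sets of a gene were averaged. Of these, 21698 matched a gene ID of GRCm38. The 48 genes and the lists were chosen with earlier results of these data known. All measured genes are named, and of each pathway list the first 3 measured; a count of 5 or fewer is also named. Variation was tested in R 4.3.3 with statmod and limma 3.58.1 (2 residual and 4.34 prior degrees of freedom). On simulated data of 19938 genes, the test called 35% of 100 genes whose SD was 10-fold the trend, 73% of 100 genes at 40-fold and 0.0253% of the rest, in 1 joint adjustment. The level trend is the median deviation of genes in 20 bins of mean level. Alternatives were another limit, probe set rule, scaling or variance trend, and leaving out each array.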

Additional observations from a re-analysis of the deposited data

How the results depend on the processing

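The number of arrays limits precision, and a gene near the limit of the background range can be placed on either side of it. With the 99th percentile limit, 14 of the 44 genes were above the range, against 17.4% of all genes. With the 95th, 32 were, against 36.8%. The brightest probe set, quantile normalization and a limit from olfactory receptors alone each gave 32, against 37.3%, 36.8% and 35.6%. Leaving out an array gave 32 to 38, against 37.0% to 46.9% of all genes. The count of genes that passed the variance test was 0 under all 7 alternatives, which says little because the test finds only very large spreads. Quantile normalization lowered the count highest on array 3 from 23 to 15; the cause was not tested. With an array left out, 15 to 19 genes were highest on array 1, 13 to 25 on array 2 and 29 to 31 on array 3. The shares of all genes were 46.3% to 51.2%, 53.7% to 56.1% and 43.9% to 48.8%. These counts and shares are larger because only the remaining pair of arrays is compared. The median difference then ran from -0.13 to -0.08 log2 for array 1, from -0.18 to 0.08 for array 2 and from 0.13 to 0.18 for array 3. Quantile normalization brought that of array 3 from 0.15 to 0.03 and removal of the level trend to 0.05. The difference settings for single genes over 0.5 log2, and those for the pathway genes, were chosen after seeing the data. No paired analysis was possible because the samples form 1 group.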
